A study of Mus musculus with 8 samples.

Results

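The genes described here encode 10 receptors that steer lymphocytes through tissue: the chemokine receptors Ccr6, Ccr7, Ccr9, Cxcr4, Cxcr5 and Cxcr6, the oxysterol receptor Gpr183, the sphingosine 1-phosphate (S1P) receptors S1pr1 and S1pr4, and the gut-homing receptor Gpr15. They were picked by symbol, and all 10 were found among the 27179 gene rows of the count table. RNA had been sequenced from CCR6+ group 3 innate lymphoid cells (ILC3s) of the mouse large intestine at steady state. One group was Zbtb46 KO, C57BL/6 mice with both Zbtb46 copies floxed and a Cre recombinase (4 mice, replicates 5 to 8). The other was WT, mice whose Zbtb46 copies were floxed in the same way but which had no Cre (4 mice, replicates 1 to 4). Each library came from 1 mouse. The Cre was not specific to the sorted cells, so the deletion in such mice is not limited to them. The sources used here do not give the age of the mice or which part of Zbtb46 was floxed. The cells had been sorted by flow cytometry as CD127+, CD90-high cells without T, B, NK or myeloid surface markers. The comparison asks which transcripts of these cells differ when the transcription factor Zbtb46 is deleted.

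All 10 are G protein-coupled receptors that signal mainly through inhibitory G proteins, and each follows a gradient of its own ligand. CCR6 follows CCL20 from the epithelium over lymphoid follicles, and GPR183 follows oxysterols made by stromal cells. In the mouse colon both help to gather ILC3s in cryptopatches and isolated lymphoid follicles. CCR7 and CXCR5 read the lymphoid tissue chemokines CCL19, CCL21 and CXCL13, CXCR6 reads CXCL16, and CXCR4 reads CXCL12. CCR9 and GPR15 are known for bringing T cells to the small and the large intestine, and S1PR1 for letting lymphocytes leave tissue towards blood and lymph.

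The stretch of 250 bases before the transcript start is shown for the most abundant pair, Cxcr6 and Gpr183, whose levels moved together from library to library, and for Ccr6, the gene of the sorting gate. Sequences are from RefSeq in build GRCm38.p6, and 7 of the 10 genes had an entry, while Ccr7, Cxcr5 and S1pr1 had none. Capitals mark matches on either strand to AGGTCA (a half-site that nuclear receptors bind), TGTGGT (the core that RUNX proteins bind) or TATAAA (the TATA box).
Cxcr6, chr9:123806227-123806476, plus strand: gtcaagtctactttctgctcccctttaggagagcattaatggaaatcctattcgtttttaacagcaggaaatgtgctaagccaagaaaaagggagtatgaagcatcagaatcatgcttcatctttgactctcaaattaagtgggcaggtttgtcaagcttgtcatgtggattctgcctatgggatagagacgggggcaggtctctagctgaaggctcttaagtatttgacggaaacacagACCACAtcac
Gpr183, chr14:121965194-121965443, minus strand: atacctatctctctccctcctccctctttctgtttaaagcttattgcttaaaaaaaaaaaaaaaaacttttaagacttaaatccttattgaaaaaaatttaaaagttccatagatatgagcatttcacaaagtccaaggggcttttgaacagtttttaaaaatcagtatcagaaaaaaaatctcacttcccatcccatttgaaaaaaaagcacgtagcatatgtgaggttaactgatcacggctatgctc
Ccr6, upstream of the first of its 2 listed starts, chr17:8235793-8236042, plus strand: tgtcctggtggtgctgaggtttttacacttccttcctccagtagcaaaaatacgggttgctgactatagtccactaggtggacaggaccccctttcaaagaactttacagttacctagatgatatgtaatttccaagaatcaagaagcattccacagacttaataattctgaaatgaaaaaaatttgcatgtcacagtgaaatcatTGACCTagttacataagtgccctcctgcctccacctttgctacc
The Ccr6 stretch held AGGTCA on its minus strand, beginning 44 bases before the start, while the stretch before its second listed start held none of the 3 motifs. The Cxcr6 stretch held TGTGGT on its minus strand, beginning 10 bases before the start, and the Gpr183 stretch held none of the 3 motifs. Of 32851 promoters in the table, 14.0% held AGGTCA, 14.0% TGTGGT and 12.4% TATAAA in the same window on either strand. A match is a description of the letters only.

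Total counts ran from 25328231 to 33760743 per library, and 10668 to 14410 genes had at least 1 count. Levels are CPM, the count of a gene relative to its library total after TMM scaling (factors that make typical genes level between libraries), given as mean ± SD over n = 4 libraries per group. Zbtb46 itself had 4.82, 0.532, 3.19 and 0.125 CPM in KO replicates 5 to 8, against 8.02, 48.8, 88.9 and 26.6 CPM in WT replicates 1 to 4. The groups did not overlap, with a log2 fold of -4.31 (SE 1.42), an adjusted p of 0.885 in edgeR and of 0.0115 in DESeq2.

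All 9 markers of ILC3s and of the gate, Il7r among them, had over 3 counts in every library, with sums of 20144 to 24965 CPM in KO and 21014 to 32149 CPM in WT libraries. Most of this sum was Il22, the main cytokine of these cells, with 15419 ± 2502 CPM in KO and 21238 ± 4647 CPM in WT cells. Of the 9, Ptprc (CD45) lay wholly higher in KO libraries, at 866 ± 87.1 CPM in KO and 524 ± 177 CPM in WT cells, and Thy1 (CD90) had 335 ± 87.9 CPM in KO and 207 ± 57.5 CPM in WT cells. Their unadjusted p were 0.0176 and 0.0401, and edgeR's adjusted p 0.983 and 0.9999. Markers of other cells varied between libraries. Sums of 10 T cell markers ran from 63.7 to 257 CPM in KO and from 85.2 to 249.8 CPM in WT libraries, with Cd8a at 0 in all 8. Sums of 7 B and plasma cell markers ran from 21.3 to 90.0 CPM in KO and from 8.92 to 136 CPM in WT libraries. Sums of 8 NK cell and ILC1 markers ran from 455 to 1000.3 CPM in KO and from 108 to 632 CPM in WT libraries, of 6 ILC2 markers from 0.438 to 28.2 CPM in KO and from 0.943 to 52.1 CPM in WT libraries, and of 9 dendritic cell markers from 68.6 to 254 CPM in KO and from 94.3 to 185 CPM in WT libraries. Most of the dendritic cell marker sum was Xcr1 and Ccl17, at 115 and 120 CPM in KO replicate 5. Itgax, Flt3 and Clec9a had at most 0.380 CPM in every library, and Siglech and Ccl22 had 0 counts. The dendritic cell markers include Zbtb46 itself, at 8.02 to 88.9 CPM in WT and 0.125 to 4.82 CPM in KO libraries. Irf8, also among them, lay wholly higher in KO libraries, at 7.63 to 25.7 CPM against 0.0786 to 5.75 CPM in WT libraries. Its adjusted p was 0.9999 in edgeR. KO libraries lay wholly above WT libraries in 2.26% of all tested genes, Ptprc and Irf8 among them. Because Zbtb46 is one of the dendritic cell markers, their sums do not compare dendritic cell content apart from genotype. A few libraries stood out. Macrophage, monocyte and neutrophil markers (10 genes) reached 786 and 374 CPM in KO replicates 7 and 5, against at most 89.1 CPM in WT libraries. These 2 sums were mostly S100a8 (316 and 238 CPM) and S100a9 (359 and 94.1 CPM). Cd14 had 49.7 and 39.1 CPM there, while Itgam had 6.04 and 0 CPM and Csf1r 0.125 and 0 CPM. Stromal and endothelial markers (8 genes) reached 486 CPM in KO replicate 7 and 786 CPM in WT replicate 1, and epithelial markers (9 genes) at most 28.6 CPM in KO libraries but 1364 CPM in WT replicate 2. KO replicate 6 had the fewest genes with a count.

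The receptor set was led by Cxcr6, Gpr183 and Ccr7, which together made up 86.7% to 96.9% of the set's CPM per kb of exon in each library, and none of the 9 genes that could be tested differed between Zbtb46 KO and WT cells past the spread between libraries. EdgeR's quasi-likelihood test called 0 of the 9 tested receptors at an adjusted p under 0.05. It also called 0 of all 8878 tested genes (0%). No receptor had an unadjusted p under 0.05, which 4.1% of all tested genes had. DESeq2 called 0 receptors, and 3.26% of the 11478 genes to which it gave an adjusted p. Limma-voom with sample quality weights called 0 receptors and 0% of all genes. Fitted values were higher in KO cells for 5 receptors and lower for 4, with a median log2 fold of 0.29, against 50.9% higher and a median of 0.02 over all tested genes. In no receptor did the 4 KO libraries lie wholly above or below the 4 WT libraries, which happened in 4.36% of all tested genes. Gpr15 did not pass the filter on low counts and was not tested.

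**Figure D1:**
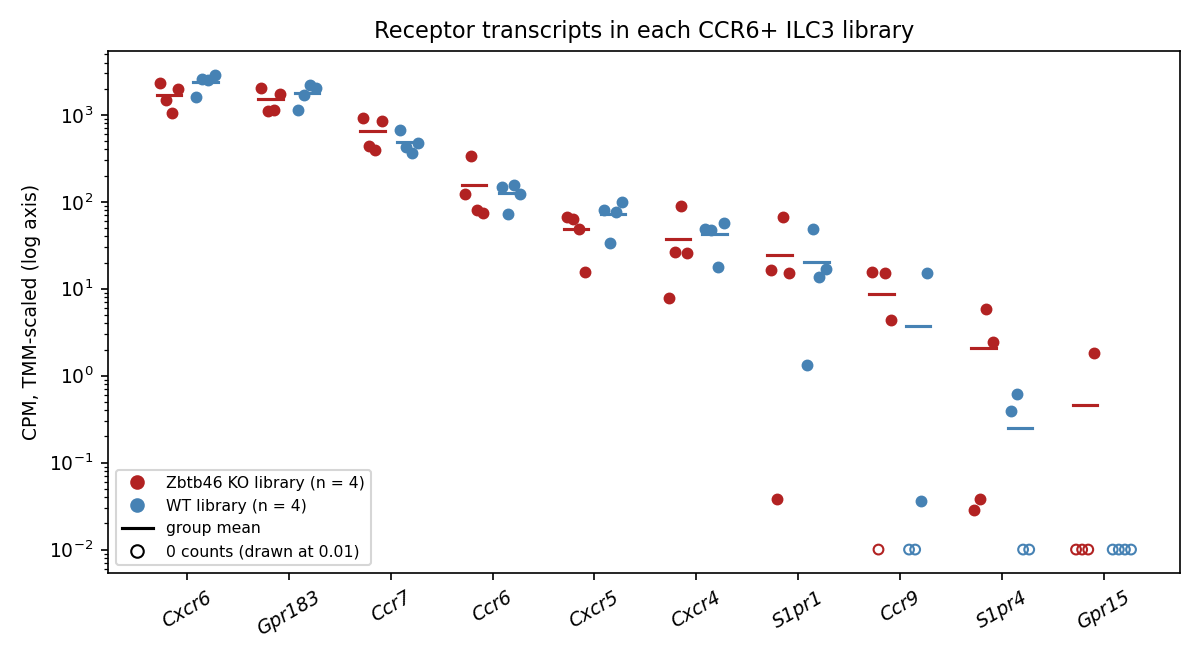
CPM of the 10 receptors (log axis) in each of the 4 Zbtb46 KO libraries (red, left of each pair) and the 4 WT libraries (blue) with group means as bars and libraries with 0 counts as open circles at the foot. Cxcr6, Gpr183 and Ccr7 stay above 300 CPM in all 8 libraries, while in S1pr1, Ccr9 and S1pr4 libraries of one group differ widely and Gpr15 is seen in 1 KO library.

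Levels of different genes can be set side by side only per length, here as CPM per kb of exon in the GENCODE annotation. In this unit the order was Cxcr6, Gpr183, Ccr7, Ccr6, Cxcr4, Cxcr5, S1pr1, Ccr9, S1pr4 and Gpr15. Cxcr6 had 885 ± 295 CPM per kb in KO and 1247 ± 293 CPM per kb in WT cells. Gpr183 followed with 554 ± 170 CPM per kb in KO and 649 ± 170 CPM per kb in WT cells, and Cxcr6 lay above it in all 8 libraries although their ranges overlapped. Ccr7 came next with 331 ± 139 CPM per kb in KO and 246 ± 67.6 CPM per kb in WT cells, below Gpr183 in all 8 libraries. The step from Ccr7 to Ccr6 was the only one between neighbours without overlap. The lowest Ccr7 library had 184 CPM per kb and the highest Ccr6 library 177 CPM per kb. Cxcr4 and Cxcr5 did not differ beyond their spread, at 22.3 and 20.9 CPM per kb over all 8 libraries, and Cxcr4 was the higher in 3 of 8. S1pr1 averaged 7.34 CPM per kb, and Ccr9, S1pr4 and Gpr15 averaged 1.12, 0.488 and 0.141 CPM per kb.

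Cxcr6, the receptor for CXCL16, was the most abundant of the set (chromosome 9, 123806477 to 123811754 in GRCm38.p6). It had 2352, 1474, 1044 and 1963 CPM in KO replicates 5 to 8, against 1599.5, 2604, 2519 and 2913 CPM in WT replicates 1 to 4. KO replicates 6 and 7 lay below every WT library, while KO replicates 5 and 8 lay above WT replicate 1, so the groups overlapped. The fit gave a log2 fold of -0.50 (SE 0.28, 95% interval -1.12 to 0.13), at an adjusted p of 0.9999 in edgeR. Its unadjusted p was 0.107. With 1 library left out it was lowest without WT replicate 1, at 0.0422, and without KO replicate 5, at 0.0441, and highest without KO replicate 7, at 0.258. EdgeR's adjusted p was 0.912 without WT replicate 1 and 0.9996 without KO replicate 5. In these fits 507 of 9528 and 367 of 9382 genes had an unadjusted p under 0.05. Cxcr6 lies inside the span of Fyco1 on the other strand, and Fyco1 averaged 46.1 ± 52.3 CPM in KO and 29.5 ± 14.6 CPM in WT cells. The sources used here do not say whether reads were counted by strand, so reads of overlapping genes may have been mixed.

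Gpr183, the oxysterol receptor also known as EBI2, was the second in abundance (chromosome 14, 121952331 to 121965193). It had 2049, 1108, 1139.8 and 1743 CPM in KO replicates 5 to 8, against 1149, 1685, 2185 and 2054 CPM in WT replicates 1 to 4. KO replicates 6 and 7 and WT replicate 1 formed the low end, and the groups overlapped over most of their range. EdgeR put the log2 fold at -0.23 (SE 0.27, 95% interval -0.84 to 0.38), with an adjusted p of 0.9999. The gene lies inside the span of Ubac2 on the other strand, which averaged 39.4 ± 13.0 CPM in KO and 39.6 ± 13.7 CPM in WT cells. The genes for the enzymes that make its ligand, Ch25h, Cyp7b1 and Cyp27a1, had 0 counts in all 8 libraries, where 0 counts allow 0.0856 to 0.124 CPM.

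Cxcr6 and Gpr183 were high and low in much the same libraries, but their proportion was not fixed. The ratio of their CPM, Gpr183 over Cxcr6, ran from 0.752 to 1.09 in KO libraries and from 0.647 to 0.867 in WT libraries. That is a 1.69-fold range over all 8, against 1.97-fold for Gpr183 and 2.79-fold for Cxcr6 alone. As a measure of likeness, the absolute difference of 2 genes in log2 CPM centred on each gene's mean was averaged over the 8 libraries. Gpr183 was at 0.20 from Cxcr6, at rank 12 among all tested genes, while the median tested gene was at 1.26. The named genes most like Cxcr6 were Emb at 0.13, Tpm4 at 0.14 and Fam133b at 0.16. Those most like Gpr183 were Rgs2 at 0.11, Cnbp at 0.11 and Emb at 0.16. Rgs2 encodes a brake on G protein signalling, Emb an immunoglobulin-type surface protein that accompanies lactate transporters, and Tpm4 a tropomyosin. Rgs2 had 2112, 1082, 978 and 1401 CPM in KO replicates 5 to 8, against 1069.7, 1539.5, 1863 and 1654 CPM in WT replicates 1 to 4, high and low in the same libraries as Gpr183. The 8 points share library preparation and depth, and abundant genes vary less than others: the median coefficient of variation within groups was 20.5% for genes at 1000 CPM and above, 33.8% at 100 to 1000 CPM and 74.1% at 10 to 100 CPM.

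Ccr7, the receptor for the lymph node chemokines, had 922, 444, 392 and 861 CPM in KO replicates 5 to 8, against 675, 430.5, 365 and 479 CPM in WT replicates 1 to 4 (chromosome 11, 99144199 to 99155077). KO replicates 5 and 8 lay above all WT libraries and KO replicates 6 and 7 within the WT range. EdgeR put the log2 fold at 0.43 (SE 0.33, 95% interval -0.30 to 1.15), with an adjusted p of 0.9999. Among KO libraries Ccr7, Cxcr6 and Gpr183 were all highest in replicate 5 and next highest in replicate 8. Among WT libraries Ccr7 was highest in replicate 1, where Cxcr6 and Gpr183 were lowest. Ccr7 thus had 0.392, 0.301, 0.376 and 0.438 times the CPM of Cxcr6 in KO replicates 5 to 8, against 0.422 in WT replicate 1 and 0.165, 0.145 and 0.164 in WT replicates 2 to 4. All KO libraries and WT replicate 1 lay above the other 3 WT libraries in this ratio, which does not depend on the scaling of libraries. It was picked after its values were seen and has no test. KO replicates 5 and 8 had the highest sums of NK cell and ILC1 markers, at 1000.3 and 807 CPM. These sums were mostly Ncr1 and Klrk1, with 447 and 426 CPM in KO replicate 5, genes that ILC3s can also express, while Eomes and Prf1 had at most 3 counts in every library. WT replicate 1 had the lowest, at 108 CPM against 554 to 632 CPM in the other WT libraries, and the highest sum of stromal markers. The part of other cells in the Ccr7 levels was not tested. In bulk libraries fewer cells of a type and less RNA per cell cannot be told apart. The genes most like Ccr7 were Fubp1 at 0.18, Dnajc3 at 0.20 and Rbm7 at 0.23 on the likeness measure.

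**Figure D2:**
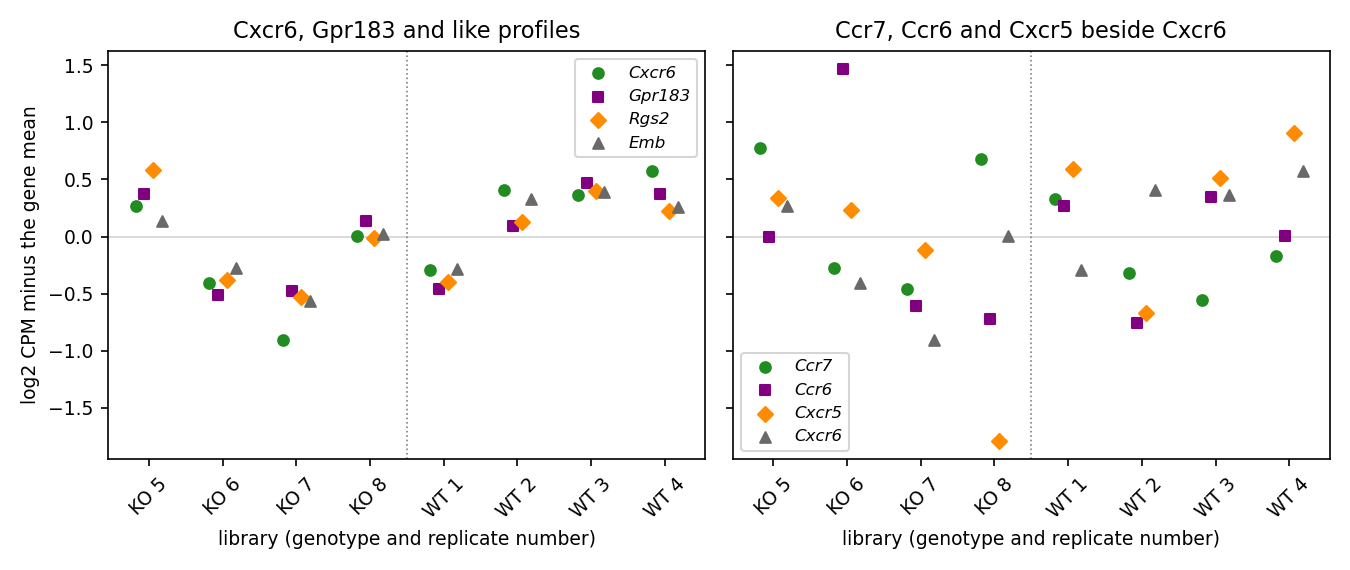
Log2 CPM minus the gene's mean over 8 libraries, for each library (Zbtb46 KO replicates left, WT replicates right of the dotted line). On the left Cxcr6, Gpr183, Rgs2 and Emb are high together and low together in most libraries, with Cxcr6 below the others in KO replicate 7. On the right Ccr7, Ccr6 and Cxcr5 part from Cxcr6, with Ccr6 highest in KO replicate 6 and Cxcr5 lowest in KO replicate 8.

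Ccr6, whose protein defined the sorting gate in both groups, was the fourth receptor in level (chromosome 17, 8236041 to 8258519). It had 123, 339.7, 80.9 and 74.4 CPM in KO replicates 5 to 8, against 149, 72.8, 157 and 123 CPM in WT replicates 1 to 4. KO replicate 6 stood above all other libraries and the other 3 KO libraries lay within the WT range. Its log2 fold came to 0.30 (SE 0.51, 95% interval -0.84 to 1.45), with an adjusted p of 0.9999 in edgeR, and without KO replicate 6 it was -0.44. The end of the gene's span overlaps the noncoding gene model Gm33799. Its ligand gene Ccl20 was counted in 1 library, at 19.2 CPM in WT replicate 2, the library with the epithelial markers.

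Cxcr5, the receptor for the follicle chemokine CXCL13, had 67.5, 62.9, 49.2 and 15.5 CPM in KO replicates 5 to 8, against 80.6, 33.7, 76.1 and 100.1 CPM in WT replicates 1 to 4. Its KO mean was 0.671 times its WT mean, and 3 of 4 WT libraries lay above all KO libraries while WT replicate 2 lay below 3 of them. EdgeR put the log2 fold at -0.57 (SE 0.59, 95% interval -1.89 to 0.74), with an adjusted p of 0.9999. The span of Cxcr5 (chromosome 9, 44511787 to 44526444) ends within that of Bcl9l on the other strand, which averaged 2.10 ± 2.44 CPM in KO and 3.48 ± 4.93 CPM in WT cells. B cells also carry Cxcr5. The 7 B and plasma cell markers summed to 90.0, 21.3, 59.1 and 25.8 CPM in KO replicates 5 to 8, against 136, 18.6, 55.2 and 8.92 CPM in WT replicates 1 to 4. Most of it was Igkc (up to 114 CPM, in WT replicate 1), Jchain (up to 58.9 CPM, in KO replicate 5) and Cd79b (up to 23.8 CPM, in KO replicate 8), while Ms4a1 and Pax5 had at most 2 counts in every library. The part of B cells in Cxcr5 was not tested.

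Cxcr4, the receptor for CXCL12, had 7.79, 26.3, 90.4 and 25.8 CPM in KO replicates 5 to 8, against 48.7, 47.3, 17.6 and 57.7 CPM in WT replicates 1 to 4 (chromosome 1, 128588199 to 128592299). Both the highest and the lowest library were KO. Its log2 fold came to -0.19 (SE 0.82, 95% interval -2.02 to 1.64), with an adjusted p of 0.9999 in edgeR, and it was 0.14 without KO replicate 5. The highest library, KO replicate 7, also had the highest sum of macrophage, monocyte and neutrophil markers, mostly S100a8 and S100a9. The part of such cells was not tested. Ackr3, a receptor that scavenges CXCL12, had 66.3 ± 33.8 CPM in KO and 29.8 ± 14.9 CPM in WT cells, with an adjusted p of 0.9999 in edgeR.

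**Figure D3:**
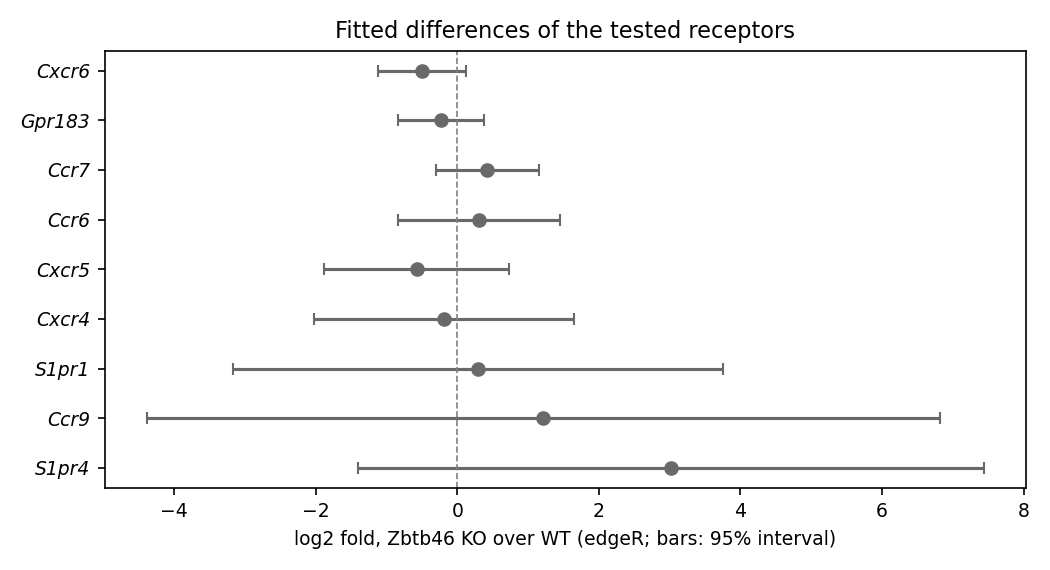
Log2 fold of Zbtb46 KO over WT for the 9 tested receptors, in order of mean CPM, with 95% intervals from edgeR's fit. Every interval holds 0, from the narrow ones of Cxcr6 (-1.12 to 0.13) and Gpr183 (-0.84 to 0.38) to the widest, that of Ccr9 (-4.39 to 6.82).

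The S1P receptors were low and patchy. S1pr1, which guides lymphocytes out of tissue, had 16.4, 0.0380, 66.6 and 15.1 CPM in KO replicates 5 to 8, against 1.33, 48.9, 13.5 and 16.9 CPM in WT replicates 1 to 4 (chromosome 3, 115710433 to 115715055). The KO replicate 6 value was a single count. Its log2 fold came to 0.29 (SE 1.55, 95% interval -3.18 to 3.75), with an adjusted p of 0.9999 in edgeR, and it was -0.91 without KO replicate 7 and -0.11 without WT replicate 1. S1pr4, a receptor of lymphocytes and other blood cells, had 1, 1, 185 and 78 counts in KO replicates 5 to 8, against 10, 15, 0 and 0 counts in WT replicates 1 to 4. It averaged 2.07 ± 2.72 CPM in KO and 0.253 ± 0.307 CPM in WT cells, and KO replicates 7 and 8 held nearly all of its reads. Its log2 fold came to 3.02 (SE 1.99, 95% interval -1.41 to 7.44), with an adjusted p of 0.9999 in edgeR.

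The gut-homing receptors were present in some libraries and missing from others. Ccr9 had 545, 0, 479 and 138 counts in KO replicates 5 to 8, against 0, 0, 1 and 381 counts in WT replicates 1 to 4. In CPM that was 15.6, 15.0 and 4.32 in KO replicates 5, 7 and 8, and 15.0 in WT replicate 4. KO and WT libraries thus reached the same height, and 3 of 4 KO libraries but 1 of 4 WT libraries held more than 1 read. Its log2 fold came to 1.21 (SE 2.52, 95% interval -4.39 to 6.82), with an adjusted p of 0.9999 in edgeR, and it was 9.03 without WT replicate 4, with an adjusted p of 0.750. Ccr9 is also a receptor of T cells. The 10 T cell markers summed to 257, 63.7, 128 and 130.0 CPM in KO replicates 5 to 8, against 106, 249.8, 165 and 85.2 CPM in WT replicates 1 to 4. Ccr9 was at 0 in KO replicate 6, which had the lowest sum, and also in WT replicate 2, which had the second highest. Trbc2 had 27.3 CPM or more in every library and Cd3g up to 60.9 CPM, in WT replicate 3, while Cd3e had at most 4 counts and Cd8a 0. The part of T cells in Ccr9 was not tested. Gpr15 had 59 counts in KO replicate 8, or 1.85 CPM, and 0 in the other 7 libraries. Fitted without the filter on low counts, its unadjusted p was 0.0342 and its adjusted p 0.431 in edgeR. In that fit 2081 of 19290 genes had an unadjusted p under 0.05, and the Gpr15 value rests on 1 library. The span of Ccr9 overlaps the noncoding gene model Gm17021.

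Ccr9 and Cxcr6 are neighbours on chromosome 9, in the same cluster of chemokine receptor genes. The start of Cxcr6 lies 23.0 kb past the end of Ccr9, yet Cxcr6 had 1066 CPM per kb over all libraries and Ccr9 1.12 CPM per kb. Farther along, Xcr1, the receptor for XCL1 known from cross-presenting dendritic cells, had 13.2 ± 8.75 CPM per kb in KO and 11.3 ± 3.24 CPM per kb in WT cells. Ccr1, a receptor for inflammatory chemokines, had 109 ± 35.6 CPM per kb in KO and 137 ± 97.9 CPM per kb in WT cells. Fyco1, whose span holds Cxcr6, had 5.72 ± 6.48 CPM per kb in KO and 3.65 ± 1.81 CPM per kb in WT cells. These genes were picked for their position after the levels of the receptors were known.

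**Figure D4:**
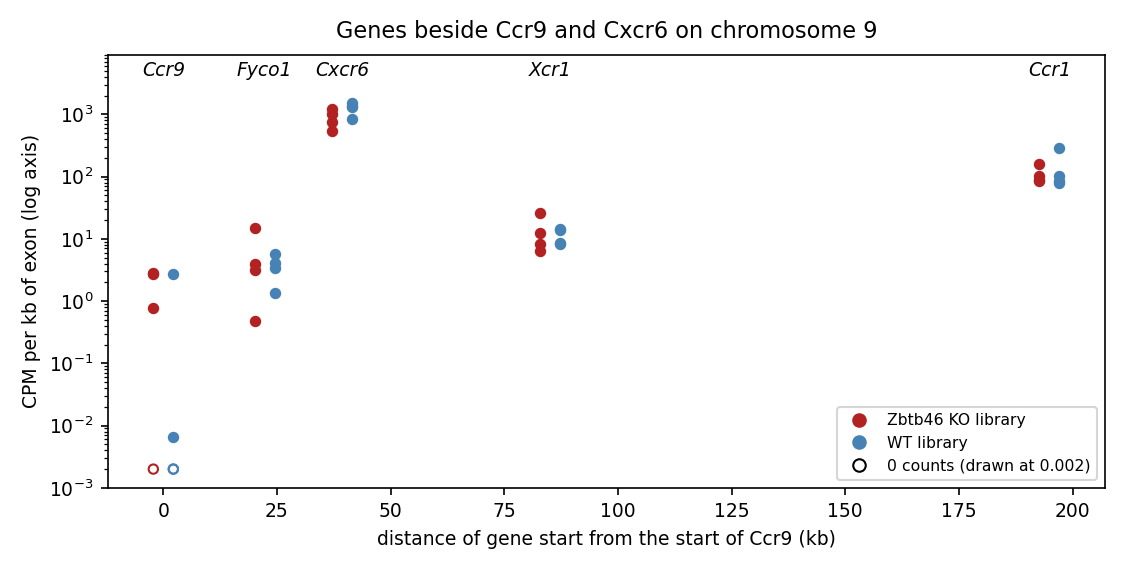
CPM per kb of exon (log axis) for Ccr9, Cxcr6 and genes near them, placed by the distance of their start from the start of Ccr9 in kb, in Zbtb46 KO (red) and WT (blue) libraries, with open circles for 0 counts. Cxcr6 stands well above its neighbours in all 8 libraries, and Ccr9 is at 0 in 1 KO and 2 WT libraries.

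Few other chemokine receptors and ligands passed the filter on low counts. Of 18 further chemokine receptors in the table, 6 were tested and 0 called, with 5 fitted higher in KO cells and a median log2 fold of 0.24. Ccr1 had 309 ± 101 CPM in KO and 389 ± 277 CPM in WT cells. Ccrl2, a chemerin-binding receptor, had 131 ± 37.1 CPM in KO and 127 ± 65.2 CPM in WT cells, and Xcr1 58.9 ± 39.0 CPM in KO and 50.2 ± 14.4 CPM in WT cells. Ccr2, known from monocytes, had 31.5 ± 38.3 CPM in KO and 21.6 ± 38.8 CPM in WT cells. Of 17 chemokine ligands 6 were tested and 0 called, with 1 fitted higher and a median of -0.43. Cxcl10, an interferon-inducible chemokine, had 296 ± 50.1 CPM in KO and 298 ± 102 CPM in WT cells, and Cxcl2, which attracts neutrophils, 32.6 ± 12.6 CPM in KO and 32.8 ± 8.78 CPM in WT cells. Cxcl9 had 10.3 ± 3.33 CPM in KO and 32.9 ± 30.6 CPM in WT cells, Cxcl1 7.80 ± 7.21 CPM in KO and 19.4 ± 22.8 CPM in WT cells, and Ccl5 35.2 ± 49.2 CPM in KO and 5.21 ± 6.18 CPM in WT cells. The CCR7 ligand gene Ccl21a was at 133 CPM in KO replicate 7, the only library with over 1 CPM of Lyve1 (68.8 CPM), a marker of lymphatic endothelium and some macrophages, and had at most 1 count in each other library.

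In the S1P pathway the gene with the lowest KO level relative to WT was Sgpp1, the phosphatase that turns S1P back into sphingosine. It had 3.37, 0.0380, 0.0626 and 2.03 CPM in KO replicates 5 to 8, against 43.7, 8.19, 82.2 and 53.6 CPM in WT replicates 1 to 4. All KO libraries lay below all WT libraries, which was so for 2.1% of all tested genes. Its log2 fold came to -5.09 (SE 1.63), the adjusted p was 0.841 in edgeR, and DESeq2 alone called it, with an adjusted p of 0.0102. With 1 library left out the log2 fold ran from -6.02 without KO replicate 5 to -4.65 without WT replicate 3. Of 12 oxysterol and S1P enzymes and transporters 7 were tested and 0 called by edgeR, 4 of them fitted higher, with a median of 0.52. The S1P lyase gene Sgpl1 had 87.3 ± 51.5 CPM in KO and 114 ± 55.9 CPM in WT cells, and the lipid phosphatase gene Plpp1 49.2 ± 25.0 CPM in KO and 26.3 ± 19.7 CPM in WT cells. The S1P kinase genes had 25.2 ± 16.1 CPM (Sphk1) and 7.10 ± 3.40 CPM (Sphk2) in KO cells, against 8.20 ± 9.44 and 11.8 ± 18.3 CPM in WT cells.

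Of 11 other receptors for S1P and lipids, 7 were tested and 0 called, with 2 fitted higher and a median log2 fold of -0.22. P2ry10, a receptor for lysophosphatidylserine, had 1045, 935, 1249.5 and 1298 CPM in KO replicates 5 to 8, against 1352, 1581, 1535 and 2773 CPM in WT replicates 1 to 4. All KO libraries lay below all WT libraries, with a log2 fold of -0.68 (SE 0.25) and an adjusted p of 0.9999 in edgeR. Gpr132 had 257 ± 86.2 CPM in KO and 300 ± 77.5 CPM in WT cells, and Gpr18 54.1 ± 52.2 CPM in KO and 124 ± 39.6 CPM in WT cells. Ptger4, a prostaglandin receptor, had 5.95 ± 7.22 CPM in KO and 32.0 ± 37.4 CPM in WT cells, and Gpr34 15.0 ± 26.1 CPM in KO and 8.44 ± 14.7 CPM in WT cells.

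The signalling machinery below the receptors was expressed in both groups. Of 16 such genes 15 were tested and 0 called, with 9 fitted higher and a median log2 fold of 0.06. Gna13, the G protein subunit that holds migration back through RhoA, had 818, 1128, 1001 and 993 CPM in KO replicates 5 to 8, against 1289, 1237, 1239 and 1278 CPM in WT replicates 1 to 4. The groups did not overlap, with a log2 fold of -0.36 (SE 0.17) and an adjusted p of 0.9999 in edgeR. The GTPase gene Cdc42 had 1514 ± 196 CPM in KO and 1467 ± 238 CPM in WT cells, and Rac1 317 ± 83.6 CPM in KO and 188 ± 57.7 CPM in WT cells. The G protein subunit genes Gnb1 and Gng2 had 333 ± 99.7 and 224 ± 134 CPM in KO cells, against 386 ± 154 and 138 ± 35.9 CPM in WT cells.

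Of 16 genes that shut receptors down or set their surface level 13 were tested and 0 called, with 8 fitted higher and a median log2 fold of 0.23. Rgs1, a brake on chemokine receptor signalling, had 4181 ± 449.8 CPM in KO and 5361 ± 930.3 CPM in WT cells. Grk2, the kinase that marks active receptors for shutdown, had 18.9, 47.7, 18.1 and 11.5 CPM in KO replicates 5 to 8, against 71.2, 62.4, 70.2 and 70.4 CPM in WT replicates 1 to 4. Arrb1, the arrestin that binds receptors so marked, lay the other way, with 68.5, 55.5, 75.8 and 62.9 CPM in KO replicates 5 to 8, against 23.3, 29.9, 4.00 and 52.4 CPM in WT replicates 1 to 4. Neither pair of groups overlapped, and KO libraries lay wholly above WT libraries in 2.26% of all tested genes. Arrb1 was picked after its values were seen. Of related genes that were tested, Grk6 had 36.7 ± 43.2 CPM in KO and 14.9 ± 16.2 CPM in WT cells. Grk3 and Arrb2 had log2 folds of -0.63 (SE 2.57) and 0.23 (SE 1.55). The log2 folds were -1.51 (SE 0.62) for Grk2 and 1.26 (SE 0.74) for Arrb1, with an adjusted p of 0.9999 in edgeR for both. Cd69, which pulls S1PR1 from the cell surface, had 286 ± 135 CPM in KO and 513 ± 194 CPM in WT cells. Foxo1, a factor that in T cells raises Klf2, Ccr7 and S1pr1, had 573 ± 52.5 CPM in KO and 358 ± 112 CPM in WT cells, with a log2 fold of 0.68 (SE 0.24) and an adjusted p of 0.983 in edgeR. Klf2 did not pass the filter on low counts and had 2.53 ± 5.05 CPM in KO and 8.00 ± 9.30 CPM in WT cells. Ccr7 and S1pr1 had log2 folds of 0.43 and 0.29. A link of Foxo1 to these genes was not tested.

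**Figure D5:**
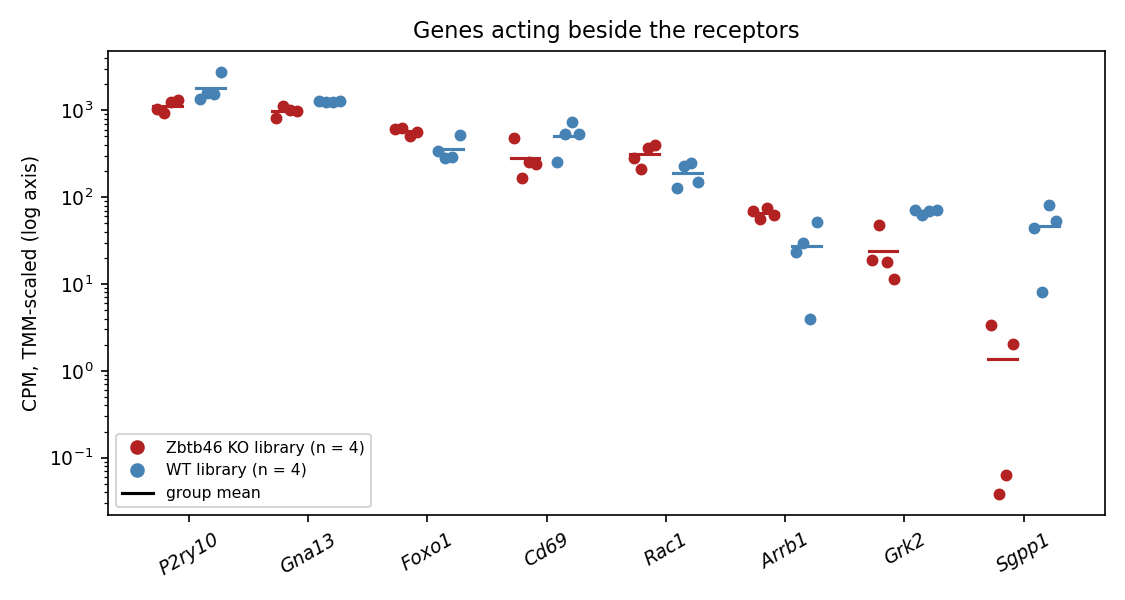
CPM (log axis) of 8 genes that act beside the receptors in each Zbtb46 KO (red, left of each pair) and WT library (blue), with group means as bars. P2ry10, Gna13, Grk2 and Sgpp1 lie lower and Arrb1 higher in all 4 KO libraries, while Foxo1, Cd69 and Rac1 overlap between groups.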

How the data were processed

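RNA from sorted cells was made into cDNA with a low-input kit, per the labels' protocols. CASAVA 1.8.2, STAR 2.3.0 and build mm10 are named in the submitters' processing notes. The authors deposited raw counts, 1 row per Entrez gene ID, with no normalization. The sources used here name no counting tool or strand setting. Of 27179 rows, 25275 matched a RefSeq symbol (GRCm38.p6), and the other 1904 held 0.303% of counts.

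Groups came from the sample titles. Genes were filtered by filterByExpr and tested with edgeR 4.0.16 (R 4.3.3), quasi-likelihood F test, TMM factors, all 8 libraries, Benjamini-Hochberg over 8878 genes, threshold 0.05. Standard errors come from the F statistic. Zero counts are read as allowing 3 counts. Reads copied by PCR cannot be told from separate molecules, so these limits cover counting error only. The fit was tested on simulated data in which only abundant genes were changed. That test does not cover genes as low as Cxcr5, Cxcr4, S1pr1, Ccr9 and S1pr4. Whether the fit can call folds as small as those of Cxcr6, Gpr183, Ccr7 and Ccr6 was not tested. Exon lengths are unions over protein-coding transcripts in GENCODE. Alternatives were RLE, upper-quartile and no factors, DESeq2 1.42.0, limma 3.58.1 (voom with quality weights), robust dispersions, no filter, at least 5 CPM in at least 4 libraries, and libraries left out.

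The members, the 6 further lists and the 9 marker lists were chosen with earlier results of these data known. All members are named. Of each further list the 3 most abundant genes and the next 2 by p are named, and other genes were picked after their values were seen. Likeness was computed for the 3 members with the highest mean CPM, on log2 CPM (prior count 2), and unnamed gene models were left out of it. Some items are not reported here.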

Additional observations from a re-analysis of the deposited data

Results flagged for a closer look

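A library was singled out where its gap to the nearest of the other 3 of its group exceeded Dixon's 95% critical share of the group's range, in the 10 receptors, Zbtb46 and the genes named from the lists. Of 81 groups with counts 9 stood out so, where chance would give about 4.05 if CPM were normally distributed. That was not shown for these values. A group at 0 in all libraries but the highest passes the rule whatever the height of that library. Some list genes were also named for their p in these data. The rule therefore only describes the libraries, and 9 against 4.05 does not show an excess over chance. Among the receptors, Ccr9 was at 15.0 CPM in WT replicate 4, against at most 0.0360 CPM in the other WT libraries. Gpr15 was at 1.85 CPM in KO replicate 8, against 0 in the other KO libraries. Among list genes, WT replicate 4 was high in Ccr1 (803 CPM, against 223 to 287 CPM in the other WT libraries) and in P2ry10 (2770 CPM, against 1352 to 1581 CPM). WT replicate 2, the library with epithelial markers, was high in Ccr2 (79.6 CPM, others 0.0783 to 6.37 CPM) and Sphk2 (39.1 CPM, others 0 to 5.31 CPM), and low in Grk2 (62.4 CPM, others 70.2 to 71.2 CPM). Gpr34 was high in KO replicate 5 (53.9 CPM, other KO libraries 0 to 5.98 CPM) and in WT replicate 3 (30.3 CPM, other WT libraries 0.0391 to 3.30 CPM).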

How the results depend on the processing

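No receptor passed the adjusted threshold under any alternative run, and Gpr15 could be fitted only without a filter. Besides the Cxcr6 and Gpr15 fits above, edgeR's unadjusted p was 0.0192 for Ccr9 without WT replicate 4. For Ccr7 it was 0.0489 without KO replicate 6 and WT replicate 1 together. In the same 2 fits 486 of 9488 and 540 of 9257 genes had an unadjusted p under 0.05. Of 151 values for the 9 tested receptors 144 kept their direction and 7 reversed. Cxcr6, Gpr183, Ccr7, Cxcr5, Ccr9 and S1pr4 kept theirs, with log2 folds of -0.68 to -0.31, -0.41 to -0.09, 0.22 to 0.78, -0.86 to -0.28, 0.77 to 9.03 and 1.73 to 3.94. With 1 library left out Ccr6 ran from -0.44 to 0.53, Cxcr4 from -1.09 to 0.14 and S1pr1 from -0.91 to 1.21. Without KO replicate 6 and WT replicate 1 together, which earlier results had set apart, Ccr6 was -0.35, Cxcr4 0.022, Ccrl2 -0.020, Cxcl2 0.24 and Gnb1 0.013. With limma-voom Ccr6 was -0.22, Xcr1 -0.021, Cxcl1 2.25 and Sphk2 1.45. Without scaling factors Cxcl10 was 0.092 and Cxcl2 0.091, without a filter 0.016 and 0.012, and with upper-quartile factors Cxcl2 was 0.025. With 1 library left out, list genes that reversed ran from -0.58 to 0.30 (Ccr1), -0.69 to 3.78 (Ccr2), -0.32 to 0.47 (Xcr1), -0.21 to 0.36 (Ccrl2), -2.06 to 3.74 (Gpr34), -0.18 to 0.25 (Cxcl10), -0.25 to 0.20 (Cxcl2), -1.13 to 1.36 (Sphk2), -0.38 to 0.068 (Gnb1), -0.050 to 0.16 (Cdc42) and -0.41 to 0.0079 (Rgs2). The causes were not tested. Over all genes, edgeR called 0, DESeq2 240 higher and 134 lower in KO cells, and edgeR without a filter 1 higher and 1 lower. With 1 library left out it called 0 to 2 lower, 2 without KO replicate 6, and 0 higher. Of the lists, DESeq2 called 1 gene lower, Sgpp1 at -5.08, and it called Zbtb46 at -4.30. The median log2 fold of all genes was 0.02 with TMM factors, 0.11 without factors and with limma-voom, -0.24 with DESeq2 and -0.19 without a filter. No paired analysis was possible because the groups share no replicate numbers. In the sparse receptors 0 counts allow 0.0856 to 0.124 CPM, below the 4.32 to 15.6 CPM of Ccr9 in the libraries with more than 1 read. The cause of such patchy levels was not tested.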
